A study of Mus musculus with 4 samples.

Results

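The cells described here are the dividing and the resting cells of 1 library of mouse bone marrow, the library labelled Mll3/4 deleted LSK. A cell barcode was used if it had at least 1000 genes, at most 10% mitochondrial transcripts and at least 3000 unique molecular identifiers (UMIs, each standing for 1 captured RNA molecule). Every cell was reduced at random to 3000 UMIs, so that deep and shallow cells were read at the same depth. The cells were chosen by measured values, their counts of cycle transcripts. A cell was called dividing if at least 3 of those UMIs came from 10 genes of late cell division (Mki67, Top2a, Cdk1, Ube2c, Birc5, Ccnb1, Ccnb2, Cenpf, Tpx2 and Nusap1), and resting if none did. Of 4715 cells in the library, 1066 were dividing (22.6%, 95% exact binomial interval 21.4 to 23.8), 2633 were resting (55.8%) and 1016 lay between with 1 or 2 such UMIs. The 4 libraries of the series held 22718 cells by the same filter.

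The series compared blood progenitors that lack the histone methyltransferases MLL3 (gene Kmt2c), MLL4 (gene Kmt2d) or both with control cells, with 1 library per genotype. All 4 libraries came from bone marrow 10 weeks after a transplantation. They were sorted for donor origin (CD45.2 positive), for absence of lineage markers and for Sca1 and Kit, a population known as LSK that normally holds blood stem cells and early multipotent progenitors. RNA was read together with 6 barcoded antibodies, against CD117, CD34, CD48, CD135, CD150 and CD201. The groups were control, Mll3 deleted, Mll4 deleted and Mll3/4 deleted, and the sources used here name neither the deleting agent or promoter nor the number of mice behind a library. Kmt2c transcripts in this library were at 36.3 CPM (UMIs of a gene per 1000000 UMIs of the group) in dividing and 51.3 CPM in resting cells, against 60.7 and 82.6 CPM in the control library. Kmt2d was at 24.4 and 29.4 CPM against 24.3 and 30.1 CPM. A 3-prime tag can lie outside a deleted stretch, so neither value checks the label.

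In a dividing cell the genes of the cycle are switched on in waves. Replication factors such as the Mcm helicase and Pcna come before and during DNA synthesis, the histone genes are expressed with DNA synthesis, and the kinases, cyclins and motor proteins of mitosis follow until the cell divides. Early B-cell progenitors alternate between such bursts, driven by the IL-7 receptor and the pre-B receptor, and pauses in which the RAG recombinase rearranges the antibody genes. Cells that leave the cycle are known to carry more of the transcripts that FOXO factors switch on, among them Btg1, Txnip and Pik3ip1.

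Nearly all cells of the library carried B-lineage transcripts. At least 3 of 7 B-lineage markers (Cd79a, Cd79b, Vpreb1, Igll1, Ebf1, Pax5 and Rag1) had a UMI in 98.5% of dividing and 99.6% of resting cells at 3000 UMIs. In the control library, given as a background, the shares were 0.61% and 0.0856%. Before thinning, the median depth was 15289 and 7502 UMIs here and 22293 and 11529 in the control, and the unthinned shares were 98.9% and 99.7% here against 0.872% and 0.1997%. The markers of the sort were present, with Ly6a (Sca1) at 143.5 CPM in dividing and 429.7 CPM in resting cells and Kit at 216.7 and 304.1 CPM. Of 16 stem cell markers, 4 reached 50 CPM in either group, while granulocyte-monocyte, mast cell, T and innate lymphoid, and stromal lists had no member at that level. Their summed levels were 52.5 and 17.9, 0 and 2.91, 32.5 and 47.0, and 21.9 and 27.2 CPM in dividing and resting cells. The dendritic, erythroid and megakaryocyte, and mature B and plasma lists had 2, 1 and 3 members at 50 CPM. These summed to 276.1 and 227.5, 126.6 and 141.0, and 101.9 and 587.0 CPM over all members of each list. Of the 4715 barcodes, 28 (0.594%) occurred in another library too. Since both groups came from 1 library, no test was possible and every interval below covers counting error only.

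Promoters of 3 mitotic genes and of 1 gene lower in dividing cells are shown for the letters known from genes of late cell division. The 120 bases before the RefSeq start are given 5′ to 3′ on the gene's strand in build GRCm38.p6. Capitals mark the cell-cycle homology region TTTGAA and the CCAAT box, each on either strand (TTCAAA and ATTGG on the other), and the marked stretches do not overlap. Cdc20, which activates the ligase that ends mitosis, lies at chr4:118437344-118437463 on the minus strand. Kif11, a spindle motor, lies at chr19:37376262-37376381 on the plus strand. Ccnb1, the mitotic cyclin B1 and a gene of the rule, lies at chr13:100786487-100786606 on the minus strand. Txnip, a FOXO target that binds thioredoxin, lies at chr3:96557837-96557956 on the plus strand.
Cdc20: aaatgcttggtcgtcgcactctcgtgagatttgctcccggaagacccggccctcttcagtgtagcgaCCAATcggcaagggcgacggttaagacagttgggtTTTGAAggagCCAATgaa
Kif11: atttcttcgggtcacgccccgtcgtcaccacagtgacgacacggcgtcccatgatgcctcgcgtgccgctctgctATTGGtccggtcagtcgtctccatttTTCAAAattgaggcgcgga
Ccnb1: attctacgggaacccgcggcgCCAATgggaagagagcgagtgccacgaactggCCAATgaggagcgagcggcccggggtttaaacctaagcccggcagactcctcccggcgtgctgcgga
Txnip: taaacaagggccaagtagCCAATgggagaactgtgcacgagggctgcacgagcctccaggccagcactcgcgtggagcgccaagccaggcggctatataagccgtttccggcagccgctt

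Cdc20 and Kif11 held TTTGAA 18 to 13 and 19 to 14 bases before the start, and each had a CCAAT box further upstream, 53 to 49 and 45 to 41 bases before it, with another in Cdc20 at 8 to 4 bases. The Ccnb1 and Txnip windows held CCAAT boxes only. The RefSeq window ran from 250 bases before to 50 after the start, and a gene counted if any of its promoters matched. TTTGAA occurred in 27 of the 36 matched genes of the list of mitotic genes outside the rule. It occurred in 6 of 9 of the rule genes (66.7%) and in 6 of 33 of the replication genes (18.2%). The share was 15.9% of the 2657 matched genes that reached 50 CPM and 20.2% of all 27025 genes with a promoter. The E2F letters TTTCCCGC or TTTGGCGC, on either strand, were in 10 of 33 replication genes (30.3%) and in 1 of 36 mitotic ones (2.78%). They were in 5.42% of matched genes at 50 CPM, against 1.8% of all genes with a promoter. CCAAT was common everywhere, in 27 of 36 mitotic genes, 57.6% of replication genes and 41.1% of all. A match is only a run of letters. Of the genes with the 20 highest and 20 lowest ratios named below, 27 had a promoter sequence to match, and Hist1h2af, Hist1h3b, Pimreg, Esco2, Hist1h3c, Ccna2, Shcbp1, Kif20a, Pbk, Dcn, Plxna4, Tcn2 and Ly6a had none.

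The rule read the thinned UMIs only, so the remaining UMIs of the same cells gave a separate count of the same genes. In those, the 10 rule genes summed to 6036 CPM in dividing cells, 346 CPM in cells between and 108 CPM in resting cells. At least 3 held-out rule UMIs were present in 94.6% of dividing, 29.3% of between and 6.12% of resting cells. The held-out level of Mki67, the proliferation antigen, was 1228 CPM in dividing and 31.2 CPM in resting cells. Birc5, the inner centromere protein survivin, was at 443 and 2.27 CPM. The labels dividing and resting thus name ends of a range, and 835 resting cells (31.7%) had at least 1 held-out rule UMI. The edge was gradual as well: the 257 cells with exactly 2 rule UMIs had 4198 CPM of replication genes and 1096 CPM of mitotic genes, and the 142 cells with exactly 3 had 5488 and 1559 CPM.

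Dividing cells were deeper than resting cells before thinning, with 15289 against 7502 UMIs, and had 3815.5 against 2489 genes. At 3000 UMIs the median was 1396.5 against 1332 genes, and mitochondrial transcripts were at 4.12% against 4.47%. When the cells were put in 4 equal bins by total UMIs, called depth bins here, the share of dividing cells was 3.56% in the shallowest, 8.91% and 23.5% in the next and 54.5% in the deepest. The median doublet score was 0.0455 in dividing and 0.0732 in resting cells. Because total UMIs moved with the groups, the main genes lower in dividing cells, and some higher ones, are also given within these bins.

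Among 3318 genes at 50 CPM or more in at least 1 group, the rule genes left out, 638 (19.2%) were at least 1.5-fold higher in dividing cells and 323 (9.73%) at least 1.5-fold lower, and the median log2 ratio of dividing over resting cells was 0.02. Outside the 5 lists of cycle genes, 3213 genes remained, with 535 higher and 323 lower. The 132 genes of those 5 lists took 7.33% of all UMIs in dividing and 0.853% in resting cells. In the control library the same rule gave 388 of 3268 genes higher (11.9%) and 137 lower (4.19%), in the Mll3 deleted library 13.4% and 5.29%, and in the Mll4 deleted library 24.2% and 22.7%. The filter admits a gene through either group, and 38 of the 42 mitotic genes that passed did so through the dividing cells alone, so their direction was bound to be upward. The same held for 18 of 28 replication and 13 of 19 histone genes, whereas the 9 pre-B receptor genes and 17 B-lineage factors that passed did so in both groups.

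**Figure D1:**
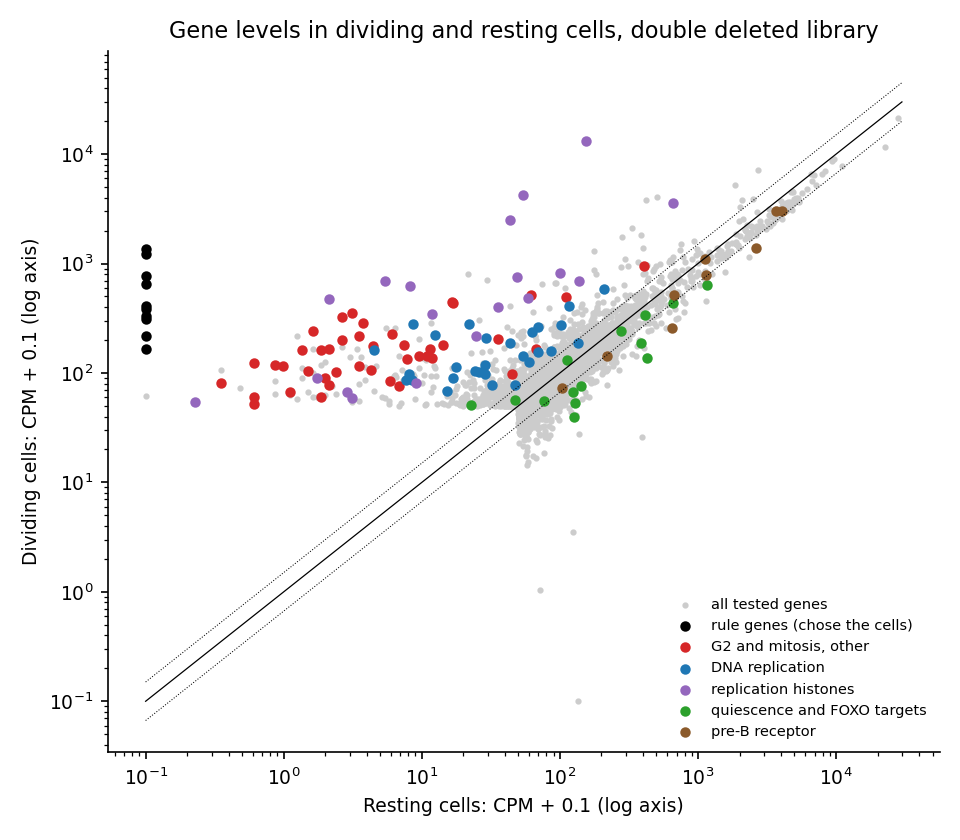
Level of each gene in resting (x) and dividing (y) cells of the double deleted library, in CPM plus 0.1 on log axes, with the solid line at equal level and dotted lines at 1.5-fold. The rule genes sit at 0 CPM in resting cells because the rule put them there. Mitotic and histone genes lie above the line, most of them far above it. The pre-B receptor genes lie on or below it, as do 11 of the 14 FOXO target genes, with Ccng2 above the upper dotted line.

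Of 44 mitotic genes outside the rule, 42 passed the level filter and each of those was over 1.5-fold higher in dividing cells, with a median log2 ratio of 5.22. The summed level of the list was 8391 against 896 CPM. Plk1, the polo kinase of mitotic entry, had 335 UMIs in dividing and 11 in resting cells (104.8 against 1.39 CPM), a log2 ratio of 6.17 (5.38 to 7.25). Cdc20 was at 181.4 against 7.34 CPM, a log2 ratio of 4.62 (4.24 to 5.04). Less steep members were Smc4, a condensin subunit, at 940.3 against 403.2 CPM (log2 1.22), and Pttg1, the mitotic protein securin, at 164.2 against 66.7 CPM (log2 1.30). These 2 genes thus kept a clear level in cells called resting.

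The 20 highest ratios began with Sapcd2. This gene, a regulator of spindle orientation, had 197 UMIs in dividing and 0 in resting cells. That is at least 162-fold higher when 3 UMIs over the group are set as the floor for a count of 0. The counting interval of the ratio began lower, at 130.7. Mxd3, a MAX partner and transcriptional repressor, followed with 339 against 2 UMIs, a ratio of 419 with a counting interval of 115 to 3471. Bub1, the spindle checkpoint kinase, had 256 against 2 UMIs, a ratio of 316 (86.6 to 2625). Esco2, which acetylates cohesin, had 699 against 9 UMIs, a log2 ratio of 7.51 (6.65 to 8.72). The other members were the histone genes Hist1h2af, Hist1h3b and Hist1h3c, the motors Kif4, Kif11, Kif2c, Kif15 and Kif20a, and Pimreg, Cep55, Hmmr, Cdca8, Ckap2l, Ccna2, Shcbp1 and Pbk, with log2 ratios from 6.47 for Pbk to 8.16 (6.24 to 14.05) for Hist1h2af, which had 1 UMI in resting cells. In the held-out UMIs these 20 genes had log2 ratios from 5.76 (Kif20a) to 8.34 (Esco2).

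Replication genes gave a smaller contrast, and resting cells held them too. Of 39 genes, 28 passed the filter, 27 were over 1.5-fold higher and the median log2 ratio was 2.01. Among the steep members, Rrm2, the small subunit of ribonucleotide reductase, was at 278.3 against 8.48 CPM (log2 5.03). Tk1, the thymidine kinase, was at 161.0 against 4.43 CPM (log2 5.16), and Clspn at 223.6 against 12.28 CPM (log2 4.18). Pcna, the sliding clamp, was at 409.6 against 115.8 CPM (log2 1.82). Mcm6, a helicase subunit, was the member short of the fold at 188.6 against 134.6 CPM (log2 0.49, 0.34 to 0.63). In the held-out UMIs its log2 ratio was -0.06. From the shallowest to the deepest depth bin, Pcna had log2 ratios of 2.27, 2.75, 1.64 and 0.945. Mcm6 had 1.12, 1.04, 0.635 and -0.30 (-0.575 to -0.018), so it was lower in dividing cells of the deepest bin. A resting cell held a median of 3 UMIs of the replication list and a dividing cell 15. Of the resting cells, 335 (12.7%) had at least 10, so a share of the resting group carried replication transcripts.

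**Figure D2:**
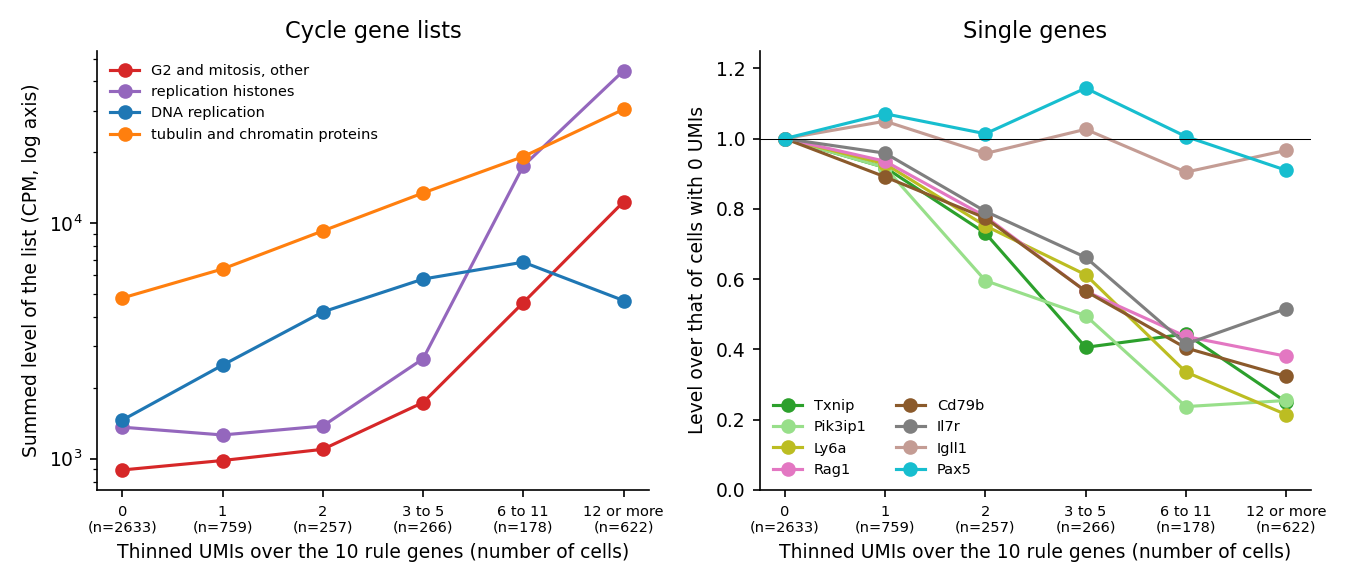
Left, summed level in CPM (log axis) of 4 cycle gene lists, and right, level of 8 genes relative to cells with 0 UMIs, over 6 classes of cells by their thinned UMIs for the 10 rule genes, with the number of cells under each class. Replication genes are highest at 6 to 11 UMIs, histones and mitotic genes at 12 or more, and at 12 or more Pax5 and Igll1 are near 1 while Txnip, Ly6a and Cd79b are the lowest of the 8 with Pik3ip1.

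Ordering the cells by rule UMIs separated the waves. The replication list stood at 1458 CPM in cells with 0 rule UMIs, 2495 with 1, 4198 with 2, 5789 with 3 to 5, 6830 with 6 to 11 and 4693 with 12 or more. Mcm6 was highest at 3 to 5 rule UMIs (328 CPM) and was at 103 CPM in the 622 cells with 12 or more, under the 135 CPM of resting cells. Ccne1, the cyclin E1 of replication onset, went from 7.60 CPM at 0 to 121.7 CPM at 6 to 11 and 64.3 CPM at 12 or more. Mitotic genes outside the rule stood at 896, 982, 1096, 1732, 4599 and 12320 CPM in the same order. The early genes were thus already raised in cells with 1 or 2 rule UMIs, where the mitotic list had barely moved. Among the dividing cells 266 had 3 to 5 rule UMIs, 178 had 6 to 11 and 622 had 12 or more, with a median of 15 (10 in the control library).

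Histone transcripts gave the widest range among dividing cells. Of 22 replication histone genes, 19 passed the filter, each was higher and the median log2 ratio was 4.57. Hist1h2ap, an H2A gene, was at 13250 against 155.3 CPM (85.3-fold, 80.6 to 90.3), and Hist1h1b, a linker histone, at 4198 against 54.2 CPM (log2 6.27). The histone genes are near-identical copies, so the level of a single one is uncertain. Most replication histone mRNAs end without a poly(A) tail, and the library chemistry primes on poly(A), so these levels need not follow the total amount of histone mRNA. Dividing cells were put in 4 equal bins by histone UMIs. In the lowest bin (0 to 6 per cell), mitotic genes summed to 2599 CPM and Mcm6 was at 343.3 CPM. In the highest (153 to 385 of the 3000 per cell), they summed to 13110 CPM and Mcm6 was at 122.8 CPM. Plk1 was at 14.98, 89.9, 154.1 and 160.4 CPM over the 4 bins. The replication list summed to 5645, 4563, 5105 and 5981 CPM over the same bins, so its sum did not follow the histone UMIs as the mitotic sum did.

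Of 17 tubulin and chromatin protein genes, 16 passed the filter and 15 were higher, with a median log2 ratio of 2.66. H2afz, the variant histone H2A.Z, was at 3805 against 423.6 CPM (log2 3.17), and H2afx, the histone marked at DNA breaks, at 712.3 against 29.5 CPM (log2 4.59). Hmgb2, a DNA-bending protein, was at 4076 against 507.3 CPM (log2 3.01). Stmn1, which takes microtubules apart, was at 2122 against 333.2 CPM (log2 2.67), while Tuba1a, an alpha tubulin, was the member short of the fold at 87.6 against 70.0 CPM.

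The regulators of the G1 phase differed among themselves. Of 19 genes, 12 passed the filter, 6 were higher and none was lower, with a median log2 ratio of 0.86. Of the 12, 7 passed through the dividing cells alone, among them all 6 that were higher, so that their direction was bound to be upward. Among the kinase inhibitors, Cdkn2d, the p19 inhibitor of CDK4 and CDK6, was at 116.3 against 12.2 CPM (log2 3.25, 2.93 to 3.60), and Cdkn1a, the p21 inhibitor, at 77.6 against 20.5 CPM (log2 1.92, 1.63 to 2.21). Cdkn2d was found mostly in the late cells, with 182.2 CPM at 12 or more rule UMIs against 16.3 CPM at 3 to 5. Cdkn1a was already at 61.0 CPM in cells with 2 rule UMIs. Rb1, the retinoblastoma protein that blocks E2F, was at 62.9 against 23.9 CPM (log2 1.39), and its relative Rbl1 at 81.9 against 19.9 CPM (log2 2.04). The kinases and their cyclin were short of the fold, with Cdk4 at 228.6 against 155.3 CPM, Cdk6 at 97.9 against 86.2 CPM and Ccnd3 at 234.5 against 204.1 CPM. Of the other inhibitors, Cdkn2c (p18) was at 278.0 against 284.1 CPM (log2 -0.03), and Cdkn1b, the p27 inhibitor associated with rest, was at 239.5 against 277.5 CPM (log2 -0.21, -0.33 to -0.09).

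Cdkn1a and Rb1 were also read in the other libraries. In the control library Cdkn1a was at 9.44 CPM in dividing and 4.85 CPM in resting cells (log2 0.96), in the Mll3 deleted library at 12.3 and 5.07 CPM (log2 1.27), and in the Mll4 deleted library at 13.1 and 22.9 CPM (log2 -0.80). Rb1 was at 10.0 and 13.1 CPM in the control (log2 -0.38), at 14.02 and 13.1 CPM in the Mll3 deleted library (log2 0.10) and at 28.2 and 58.0 CPM in the Mll4 deleted library (log2 -1.04). Of 18 p53 targets, to which Cdkn1a belongs, 5 passed the filter here and 2 were higher, Cdkn1a and Phlda3 (log2 0.68), with a list median of 0.12 that became -0.02 with totals that leave out mitochondrial and ribosomal protein genes. Of the 5, 3 passed through the dividing cells alone, both higher genes among them. Since few control cells carried B-lineage transcripts, genotype and cell type cannot be told apart in these differences.

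Transcripts linked with leaving the cycle were lower in dividing cells. Of 22 quiescence and FOXO target genes, 14 passed the filter, 7 were lower and 1 was higher, with a median log2 ratio of -0.72. Txnip was at 137.0 CPM in dividing and 426.0 CPM in resting cells (log2 -1.64, -1.78 to -1.49). Pik3ip1, an inhibitor of PI3 kinase, was at 39.4 against 126.3 CPM (log2 -1.68), and Sesn1, a stress-induced inhibitor of mTORC1, at 53.2 against 127.7 CPM (log2 -1.26). The antiproliferative genes Btg1 and Btg2 were at 636.0 against 1158 CPM and 186.1 against 384.1 CPM, and Foxo1 itself at 438.4 against 656.9 CPM (log2 -0.58). The higher member was Ccng2, a cyclin that slows the cycle, at 51.3 against 22.8 CPM, with 76.6 CPM in cells of 12 or more rule UMIs.

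Part of this contrast ran with the depth of the cells. Within the depth bins the median log2 ratio of the FOXO target list was 0.09, -0.15, -0.34 and -0.23 from the shallowest to the deepest, where that of all genes was 0.15, 0.12, 0.09 and 0.09. Txnip was lower in each bin (log2 -0.35, -0.86, -0.60 and -0.79, with 0 inside the interval of the shallowest, which held 42 dividing cells), as was Pik3ip1 (-1.43, -0.86, -0.95 and -0.83). Btg1 came closer to even (-0.04, -0.32, -0.31 and -0.28), and Cdkn1b was on the higher side in each bin (0.21, 0.04, 0.38 and 0.65). The part of depth in these ratios was not tested.

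**Figure D3:**
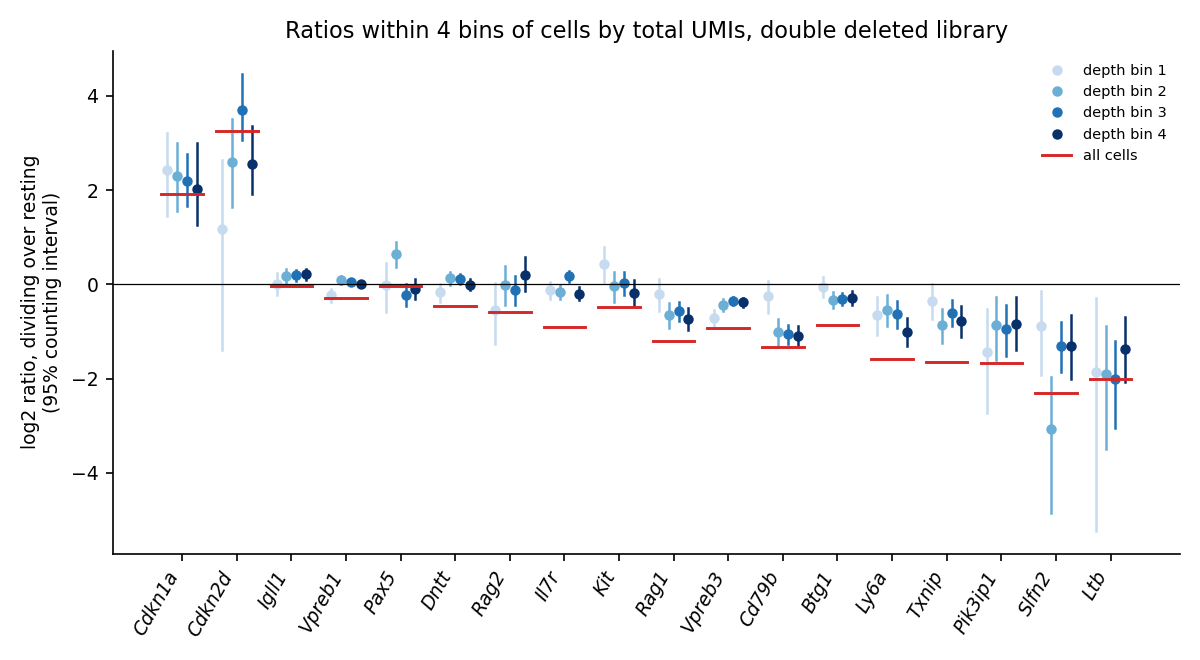
Log2 ratio of dividing over resting cells (y) for 18 genes within each of 4 bins of cells by total UMIs (points, light to dark from fewest to most, with 95% counting intervals), and over all cells (red lines). For Il7r, Dntt, Vpreb1, Rag2 and Kit most points lie near 0 and above the red line, while Txnip, Pik3ip1, Slfn2, Ltb and Ly6a are below 0 in each bin and Cdkn1a above 0.

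B-lineage genes ranged from even to clearly lower. Of 16 genes of the pre-B receptor and its signalling, 9 passed the filter, 3 were lower and none was higher, with a median log2 ratio of -0.50. The surrogate light chain, which stands in for the light chain before it is rearranged, differed least: Igll1 was at 1099 against 1132 CPM (log2 -0.04) and Vpreb1 at 3025 against 3685 CPM (log2 -0.28). Cd79b, a signalling chain of the receptor, was at 259.5 against 653.5 CPM (log2 -1.33, -1.44 to -1.23), whereas its partner Cd79a was at 2991 against 4057 CPM (log2 -0.44). Vpreb3 was at 1389 against 2639 CPM (log2 -0.93), and Ighm, the mu heavy chain, at 788.6 against 1143 CPM (log2 -0.54). With resting cells weighted to the dividing cells' UMI totals the Ighm value was -1.38. In that weighting few resting cells count for much, since the deepest of its 10 bins held 8. In the deepest of the 4 depth bins, resting cells also held 550 UMIs of the joining chain Jchain and 2912 of the kappa chain Igkc. Resting Ighm was at 1287 CPM there, against 927.3 CPM in the bin before. The paired chains thus differed in how far they followed division. Within the depth bins, Cd79b had log2 ratios of -0.25 (0 inside its interval), -1.01, -1.06 and -1.09, Ighm had -0.06, -0.30, -0.04 and -0.89, Vpreb3 had -0.72, -0.43, -0.35 and -0.38, and Vpreb1 had -0.22, 0.10, 0.06 and 0.01.

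Of 12 recombination genes, 4 passed the filter and 2 were lower. Rag1, a subunit of the recombinase, was at 258.0 against 591.6 CPM (log2 -1.20, -1.31 to -1.09) and went from 592 CPM at 0 rule UMIs over 460 at 2 and 335 at 3 to 5 to 225 CPM at 12 or more. Its partner Rag2 was at 131.0 against 195.2 CPM (log2 -0.57), and Dntt, which adds untemplated bases at the joints, at 1151 against 1585 CPM (log2 -0.46). Xrcc6, the Ku70 end-joining protein, was at 88.8 against 163.7 CPM (log2 -0.88), but its log2 ratios in the depth bins were -1.03, 0.16, -0.05 and -0.13, with 0 inside the last 3 intervals. Rag1 was lower in each depth bin (log2 -0.21, with 0 inside its interval, then -0.66, -0.57 and -0.73), while Rag2 (-0.55, -0.003, -0.12 and 0.21) and Dntt (-0.17, 0.13, 0.12 and -0.01) did not.

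Of the B-lineage lists, that of transcription factors had the median nearest 0. Of 24, 17 passed the filter and 1 was past the fold, Erg, at 159.8 against 260.0 CPM (log2 -0.70). Ebf1, which commits progenitors to the lineage, was at 1719 against 2384 CPM (log2 -0.47), and Pax5, which keeps them there, at 285.8 against 290.4 CPM (log2 -0.02, -0.14 to 0.09, and 0.02 with TMM scaling). The list median was -0.28. Within the depth bins it was -0.02, 0.02, -0.07 and -0.10.

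Of 18 IL-7 signalling genes, 8 passed the filter, with 2 lower, 1 higher and a median of -0.32. Il7r, the receptor chain, was at 838.3 against 1565 CPM over all cells (log2 -0.90, -0.96 to -0.84), but within the depth bins its log2 ratios were -0.12, -0.17, 0.18 and -0.20. Cish, a feedback inhibitor of STAT5 signalling, was at 31.9 against 61.8 CPM, and Pim1, a kinase induced by STAT5, at 77.9 against 43.8 CPM (log2 0.83). Myc, which drives growth, was at 58.5 against 56.6 CPM (log2 0.05, -0.21 to 0.30), with 23.8 CPM in the bin of dividing cells with most histone UMIs and 72.4 CPM in that with fewest. The sign of the Myc ratio was not stable, at -0.28 in the held-out UMIs and -0.09 with totals that leave out mitochondrial and ribosomal protein genes.

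Of 26 genes of B-progenitor stages, 14 passed the filter and 7 were lower, with a median of -0.51. Igkc, the kappa chain gene, was among the 7 (log2 -3.92), but its ratio was 0.25 without the 5% of cells with most UMIs. Ly6a, the stem cell antigen of the sort, was at 143.5 against 429.7 CPM (log2 -1.58), and it was lower in each depth bin (-0.64, -0.53, -0.63 and -1.02). The tetraspanin Cd37 was at 142.0 against 355.4 CPM (log2 -1.32), and Enpep, the BP-1 antigen of pre-B cells, was even at 365.9 against 375.4 CPM. In the control library Ly6a was at 52.7 against 157.6 CPM (log2 -1.58).

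The 20 lowest ratios began with Jchain, the joining chain of secreted antibody, with 3 UMIs in dividing and 564 in resting cells (0.94 against 71.4 CPM). That value came from few cells, since 98.9% of the resting UMIs lay in 10 cells. For Jchain and the kappa chain Igkc together, the 12 resting cells with at least 5 UMIs held 96.0% of the UMIs, and 1 of them held 1677. Plasma cells are the usual source of both. The next genes were spread over many cells: Slfn2, which guards resting lymphocytes, had 89 UMIs in 70 dividing cells and 1089 in 569 resting cells (log2 -2.30, -2.64 to -2.00). Ltb, the lymphotoxin beta cytokine, was at 16.6 against 67.1 CPM (log2 -2.01). In the depth bins, Slfn2 had log2 ratios of -0.89, -3.07, -1.30 and -1.31 and Ltb of -1.85, -1.91, -2.00 and -1.36.

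Among the rest of the 20 were 2 histone demethylases, Kdm5b at 41.0 against 130.3 CPM (log2 -1.66) and Kdm7a at 19.4 against 57.5 CPM (log2 -1.56). Hbp1, a repressor of cycle genes, was at 23.5 against 67.9 CPM, and Ddit4, an inhibitor of mTORC1, at 17.8 against 56.5 CPM (log2 -1.65). Txnip, Pik3ip1 and Ly6a were also among them, as were Dcn, Plxna4, Speer2, Crisp1, Gimap8, Tcn2, Tecpr1, Zfas1, Pbxip1 and Ppp1r9b, with log2 ratios from -2.05 (Dcn) to -1.46 (Ppp1r9b). Dcn, Speer2 and Crisp1 had 0 UMIs in both groups of the control library. Within the depth bins Dcn had log2 ratios of 0.99, -3.41, -2.67 and -0.73 and Speer2 of -1.56, 0.09, 1.01 and -0.50, so neither was lower in each bin. Weighting the resting cells to the dividing cells' UMI totals brought Speer2 to -0.17 and Dcn to -0.97. In this library Crisp1 lay in 173 of the resting and 32 of the dividing cells, and its 10 richest resting cells held 34.3% of its resting UMIs.

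Growth and metabolism lists gave mixed results. Of 31 proteasome genes all passed the filter, 2 were higher and the median log2 ratio was 0.27, the same as in the control library (0.27). Of 27 ribosome-making genes 20 passed and 1 was higher, Pa2g4, a proliferation-linked protein of the nucleolus, at 220.5 against 127.0 CPM. Ribosomal protein genes took 21.8% of UMIs in dividing and 28.1% in resting cells. Of 18 glycolysis genes 10 passed, 4 were higher and 1 was lower. Of all 3318 genes, 19.2% were higher and 9.73% lower. Slc16a1, a lactate carrier, was at 75.1 against 36.8 CPM, and Gapdh at 1157 against 664.6 CPM. Aldoa, the aldolase A gene (the first of the identifiers with that symbol), was at 51.0 against 107.1 CPM (log2 -1.07). Over the depth bins the glycolysis median was 0.135, 0.266, -0.038 and -0.03. The ribosome-making median was -0.013, 0.04, -0.319 and -0.365, and the Gapdh log2 ratio 0.69, 0.51, 0.38 and 0.44. Of 14 class I and interferon genes that passed, out of 21, none was past the fold. Of 20 cholesterol synthesis genes none reached 50 CPM.

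Of the 6 surface proteins, CD117 differed most between the groups. Antibody counts were turned into centred log ratios (natural log of the count plus 1, less the mean over the 6 antibodies of the cell). CD117, the Kit receptor, had a median count of 670 in dividing and 447 in resting cells, and its centred log ratio was 0.25 higher in dividing cells. The groups overlapped widely, with the middle 50% of dividing cells between 2.001 and 2.64 and of resting cells between 1.72 and 2.44. Over 4 equal bins of all cells by each antibody, the share of dividing cells was 13.3% (11.4 to 15.4) in the bin with least CD117, then 19.2%, 25.6% and 32.3% (29.7 to 35.1). Kit transcripts ran the other way at 216.7 against 304.1 CPM (log2 -0.49, -0.61 to -0.37). Within the depth bins the CD117 difference was 0.19, 0.17, 0.29 and 0.20, and the Kit log2 ratio 0.44, -0.04, 0.02 and -0.18. The protein difference was thus present at each depth, and the transcript difference was not. On counts per 1000 antibody counts the CD117 difference was 0.09.

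For CD201, the protein C receptor found on stem cells, the slope was the other way. The dividing share was 28.1% in its lowest bin and 15.96% (13.9 to 18.2) in its highest, and the centred log ratio of dividing minus resting cells was -0.12. CD34 and CD150 gave shallower slopes, from 26.2% to 17.8% and from 26.5% to 18.1%, with differences of -0.10 and -0.07. Counts were low, with medians in dividing and resting cells of 30 and 29 for CD201, 13 and 12 for CD34, and 39 and 36 for CD150. Within the depth bins the difference was -0.03, -0.084, -0.068 and -0.07 for CD201, -0.035, -0.011, -0.071 and -0.078 for CD34, and -0.08, 0.001, 0.034 and -0.005 for CD150, whose sign differed between bins. For CD48 (21.03% to 23.01%) and CD135 (22.1% to 23.3%) the intervals of the lowest and the highest bin overlapped. Uncentred, the differences of CD150, CD201, CD135 and CD34 were on the higher side, and dividing cells had more antibody counts in all (a median of 1070.5 against 786). In the control library the dividing minus resting difference was 1.22 for CD48, -0.70 for CD201 and 0.085 for CD117.

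**Figure D4:**
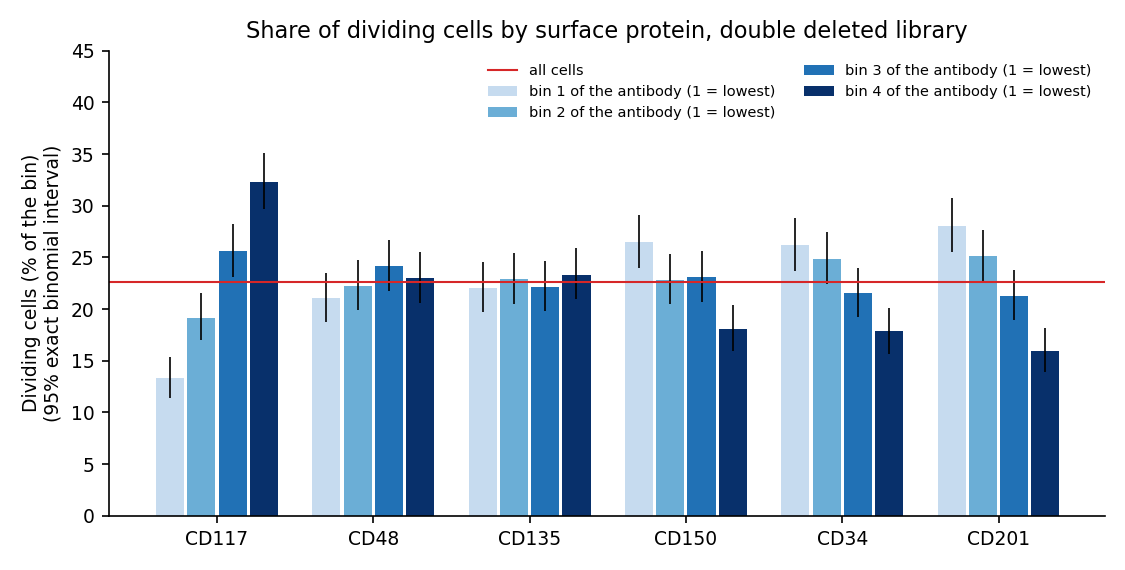
Percent of cells that were dividing (y, bars from 0) in each of 4 bins of cells by the centred log ratio of each antibody (light to dark from lowest to highest), with 95% exact binomial intervals and the value over all cells as a red line. The bars for CD117 climb from 13.3% to 32.3%, those for CD201, CD34 and CD150 go down, and those for CD48 and CD135 stay near the line.

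The same rule was set on the other libraries to place these values. The dividing share was 31.6% in the control (30.5 to 32.7), 34.4% in the Mll3 deleted and 30.0% in the Mll4 deleted library, against 22.6% here, and the resting share was 48.3%, 46.5% and 45.9% against 55.8%. Each interval covers counting error within 1 library, so no difference between genotypes has a replicate check. The median log2 ratio of the mitotic list was 5.22 here against 4.61, 4.49 and 3.78, that of histones 4.57 against 3.46, 3.50 and 3.36, and that of replication genes 2.01 against 1.26, 1.42 and 1.82 in the control, Mll3 deleted and Mll4 deleted libraries. These medians are over different members in each library (42 mitotic genes here and 37 in the control), most of them admitted through the dividing cells, so their order is not read. Over all 44 mitotic genes without a filter, the log2 ratio of the summed levels was 3.23 here against 3.59, 3.75 and 3.39. For the 22 histone genes it was 4.44 against 3.65, 3.39 and 3.54, and for the 39 replication genes 1.87 against 1.33, 1.45 and 1.73. The mitotic sum thus gave the smallest ratio of the 4 libraries here. In resting cells of this library Smc4 alone was at 403.2 CPM and Smc2 at 110.4 CPM, of a sum of 895.6 CPM. Cdkn2d was at 90.5 against 47.7 CPM in the control (log2 0.92), so that its ratio of 3.25 here came mainly with a low resting level of 12.2 CPM.

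**Figure D5:**
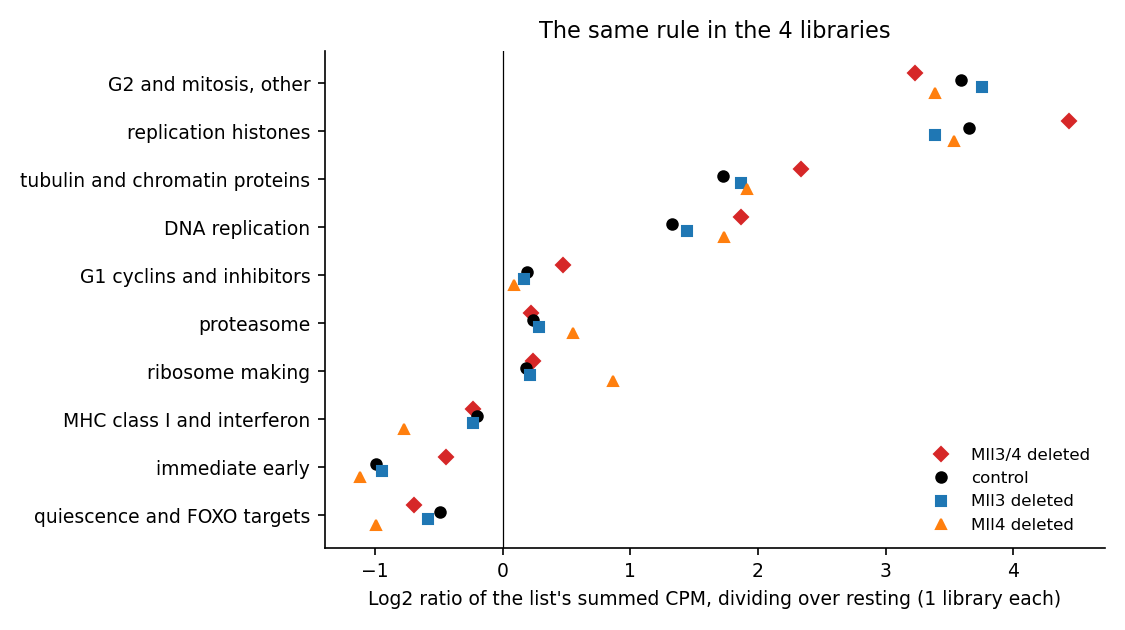
Log2 ratio of the summed level of each of 10 gene lists in dividing over resting cells (x) in each of the 4 libraries, 1 symbol per library, over all members with no level filter. The double deleted library (diamonds) is at 3.23, 4.44, 2.34 and 1.87 for mitotic, histone, tubulin and replication genes, left of the other libraries for the first and right of them for the rest.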

How the data were processed

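The deposited matrices hold raw counts of UMIs for 32285 genes and of 6 antibody tags per barcode. Cell Ranger 6.1.1 and build mm10 are named in the submitters' processing notes, and the authors' barcode filter was not given in the sources used here. Gene positions are from GENCODE mouse release 21 (99.8% of gene identifiers found). Cells were thinned once (seed 0) and thinned UMIs summed per group. Log2 ratios of CPM were taken after adding 0.5 UMIs. Intervals are exact at 95%: conditional binomial for ratios, Clopper-Pearson for shares. Reads sharing a UMI count once. Named genes were the rule genes, members of 30 lists (541 entries), and the 20 highest and 20 lowest ratios at 50 CPM. Those highest and lowest left out rule, mitochondrial, ribosomal protein, haemoglobin, receptor segment and unnamed genes, Xist, Tsix and genes of the Y chromosome. Members and lists were chosen with earlier results of these data known. Doublets were not removed; leaving out the highest Scrublet-type scores (scanpy 1.11.5) was an alternative, as were TMM (edgeR 4.0.16), other thresholds, filters and scalings. The scripts were tested on simulated counts. Of the B-lineage markers, 1 is not reported here, and the marker check was run without it.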

Additional observations from a re-analysis of the deposited data

Results flagged for a closer look

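The 3 values flagged here had a sign in this library opposite to that in the control library. They are not all such values, since the medians of the recombination, p53 target and dendritic lists also differed in sign. The difference between the libraries was not tested, and each has 1 library. The median log2 ratio of the MLL3/4 complex genes was -0.209 over 5 of 15 members here and 0.062 over 4 in the control. Of the 5, 2 passed the filter through resting cells alone, and the summed level of all 15 was higher in dividing cells in both, at 744.5 against 731.0 CPM here and 738.1 against 702.6 CPM in the control. That of the stem cell markers was 0.066 over 4 of 16 members (Meis1, Hoxa9, Mllt3 and Ly6a) and -0.998 over 11 in the control, while their summed level was lower in dividing cells in both, at 380.9 against 631.2 CPM here and 1220 against 2307 CPM in the control. The dividing minus resting difference of CD34 was -0.097 here and 0.294 in the control. The median CD34 count was only 13 in dividing and 12 in resting cells here, against 240 and 136 in the control. Uncentred, the CD34 difference here was 0.074.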

How the results depend on the processing

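No paired analysis was possible because each genotype has 1 library. The share of dividing cells was 17.9% with 5 or more rule UMIs, 28.1% with 2 or more, 19.6% without the 5% of cells with most UMIs and 25.8% under a stricter cell filter (1500 genes, 5% mitochondrial). The number of higher genes was 1051 at a minimum of 20 CPM and 366 at 100 CPM, and the number of lower genes 773 and 150. Totals without mitochondrial and ribosomal protein genes shifted ratios by -0.14 and gave 751 lower genes, median-of-ratios shifted them by 0.02 and TMM by -0.04. Weighting resting cells to the dividing cells' UMI totals gave 175 lower genes, although the deepest of its 10 bins held 8 resting and 107 dividing cells.

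Under that weighting signs changed for Cdk6 (-0.046), Cdkn1b (0.55), Rag2 (0.088), Dntt (0.11), Il7r (0.0026), Igll1 (0.27), Vpreb1 (0.079), Pax5 (0.0038), Enpep (0.085) and Myc (-0.67), and for the medians of the MLL3/4 complex (0.045), ribosome making (-0.26), glycolysis (-0.036), class I and interferon (0.070) and genes high in this library (0.068). The antibody differences became 0.0076 for CD150, -0.051 for CD48, -0.035 for CD201 and -0.023 for CD34. Myc was -0.14 with another seed, -0.15 with all UMIs, -0.28 in held-out UMIs, -0.059 with 5 or more rule UMIs, -0.15 without the deepest cells and -0.087 without mitochondrial and ribosomal protein genes. Enpep was 0.019 with another seed, 0.089 without the deepest cells and 0.0026 with TMM. Igll1 and Pax5 were 0.089 and 0.030 against resting cells with at most 1 replication UMI, and 0.013 and 0.019 without the deepest cells; Pax5 was 0.017 with TMM. Igkc was 0.25 without the deepest cells, and Mcm6 -0.056 in held-out UMIs. The stem cell list was -0.0089 with all UMIs, -0.071 without mitochondrial and ribosomal protein genes and -1.58 at 100 CPM, the p53 list -0.024 without those genes, and the MLL3/4 complex 0.083 at 20 CPM and 0.21 at 100 CPM.

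CD135 was 0.0076 against resting cells with at most 1 replication UMI (CD201 -0.19), 0.0036 without the highest doublet scores, 0.00036 without the deepest cells and 0.013 under the stricter filter. On counts per 1000 antibody counts CD150, CD48, CD201, CD135, CD117 and CD34 were -0.23, -0.10, -0.26, -0.15, 0.087 and -0.23, and uncentred 0.078, 0.20, 0.033, 0.21, 0.40 and 0.074. The causes were not tested. Of 1275 alternatives for named genes 1046 stayed within the counting interval and 26 reversed the sign. For lists, 250 of 315 were classed as the same and 11 as reversed, and for antibodies 33 of 54 and 11. For the counts of genes 24 of 30 were the same, and for the share of dividing cells 3 of 7. Leaving out the 20 cells with at least 5 Jchain and Igkc UMIs was chosen after seeing the data. Depth limits genes under 50 CPM, which were not described one by one.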
